A study of Mus musculus with 21 samples.

Results

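Liver tumours induced by N-nitrosodiethylamine (DEN) were set against livers of untreated wild-type (WT) mice. The comparison used 11 of the 21 arrays of the series: 7 DEN tumours from 5 mice and 4 WT livers from 4 mice. Members were chosen by their labels alone, and tumours whose names share the number before the T were taken as tumours of 1 mouse and averaged. Mice of strain C57BL/6J with Trp53 wt had received DEN intraperitoneally at day 15, at a dose of 10 µg/g, and their tumours are labelled as hepatocellular carcinoma (HCC). The WT livers came from untreated C57BL/6J mice, also Trp53 wt. Untreated Trp53 ko livers (KO livers, 4 mice) and tumours of untreated Trp53 ko mice (KO tumours, 6 from 5 mice, labelled hepatocellular or cholangiocellular carcinoma) shared the fit, and appear below only where a DEN value is set beside them. The sources used here do not give sex, age at collection, tumour size or tumour purity. Liver without tumour from DEN-treated mice was not analysed here, so tumour formation, past exposure to DEN and age cannot be told apart in these differences.

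DEN is a nitrosamine that hepatocytes turn into a reactive ethylating agent, mainly through the cytochrome P450 enzyme Cyp2e1, which sits in the hepatocytes around the central vein. In mice given DEN in infancy, tumours that carry activating mutations of the Ras, Raf or Egfr genes are common, and the ERK kinase cascade lies downstream of all of them. Normal liver divides its work by zone. Wnt signals near the central vein maintain glutamine synthesis and much of drug metabolism, while urea and glucose production lean towards the portal side. Growth hormone, released in pulses in males, sets a large sex-biased set of liver genes.

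RNA was labelled with Cy3 and read on 1-colour Agilent arrays, 1 array per sample. A level below is the log2 processed intensity of a gene's probe minus the 75th percentile of that array, so a level of 0 lies at that percentile and a difference of 1 is 2-fold. The 75th percentile was 512 to 884 intensity units on DEN tumour arrays and 476 to 729 on WT liver arrays. Between 65.0 and 82.4% of probes were well above background on DEN tumour arrays, against 57.8 to 63.4% on WT liver arrays. The DEN tumours lay on 2 slides: tumours 1, 5 and 7 on one, scanned on 1 day, and tumours 2, 3, 4 and 6 on another, scanned on a second day. The WT livers filled a slide of their own, scanned on another day again, so slide and group cannot be told apart in the comparison with WT livers. Arrays of WT livers correlated with each other at 0.965 to 0.985 and DEN tumours with WT livers at 0.916 to 0.963, over 23100 genes. Tumours of different mice correlated at 0.958 to 0.979 within a slide and at 0.945 to 0.962 across slides. The 2 tumours of mouse 4 and of mouse 5, which lay on different slides, correlated at 0.956 and 0.960. Tumour 5, the second tumour of mouse 4, stood nearest to liver: its median correlation with the WT livers was 0.959, against 0.918 to 0.939 for the other 6 tumours. Results that turn on it are therefore given below with and without it. Albumin (Alb), the defining plasma protein of hepatocytes, was at 8.83 to 9.75 in the DEN tumours and 9.29 to 9.76 in the WT livers, and did not pass the test (log2 difference -0.26, limma adjusted p = 0.736).

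In the fit across all genes (limma, Benjamini-Hochberg adjusted p under 0.05), 2489 of 23555 genes (10.6%) were higher and 2577 (10.9%) lower in DEN tumours than in WT livers. Of these, 1815 and 1509 differed at least 2-fold. Counts of list members below are to be read against the shares of 10.6% and 10.9%. The mice of the groups did not overlap for 24.0% of all genes tested. The median change over all genes was 0.04. With slide as a random block, 297 genes (1.26%) were higher and 125 (0.531%) lower. This block lets arrays of a slide share a shift and enters each tumour on its own. At an unadjusted p under 0.05 (limma), in either direction, 7942 genes passed without the block and 3483 with it. Unadjusted counts of list members below are to be read against these. Against KO livers, which lay on a slide scanned on the day of tumours 1, 5 and 7, 5482 genes (23.3%) were higher and 3668 (15.6%) lower in the DEN tumours. Of the genes higher than in WT livers, 1902 were also higher than in KO livers and 19 were lower. Of those lower than in WT livers, 1896 were also lower than in KO livers and 51 were higher. Both comparisons share the DEN tumours.

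Several of the genes that rose most were at or near background in WT liver and lay above every liver in all 7 tumours. Bex1, a brain-expressed adapter protein encoded on the X chromosome, was at 5.002, 3.43, 2.81, -1.07, 1.52, 3.67 and 5.93 in DEN tumours 1 to 7 and at -6.95, -4.52, -6.73 and -7.21 in the WT livers. Tumour 4 was the lowest of the tumours, and the log2 difference was 9.61 ± 0.95 (SE, adjusted p = 4.41e-06). Of the WT arrays, 1 of 4 was above background for Bex1, whose probe lies at chrX:132748552-132748611 in build mm9. Kif5c, a kinesin motor known from neurons, ranged from 0.85 to 3.19 in the tumours (median 1.83) and was at -7.21, -5.54, -6.20 and -6.12 in the WT livers, where no array was above background. Its mean was at least 118-fold higher in the tumours (adjusted p = 2.9e-09), and its probe lies at chr2:49630228-49630287 (mm9). This bound sets the tumours against the dimmest signal that still counts as above background. It was at least 374-fold for Erich4 (adjusted p = 1.81e-05), 212-fold for Tceal5, a transcription elongation factor-like protein (adjusted p = 1.28e-05), and 59.1-fold for Inava, an activator of innate immune signalling (adjusted p = 5.07e-06). These 4 genes were above background in 0 of 4 livers, while signal in all 7 tumours was a condition of the choice.

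Genes of secretion, the cell surface and steroid metabolism filled the rest of the top 12. Tspan8, a tetraspanin of the cell surface, was at 3.36 to 6.00 in the tumours (median 4.13) and -3.41, -2.53, -4.12 and -4.10 in the livers. Its log2 difference was 8.33 ± 0.55 (adjusted p = 1.68e-07). Akr1c18, a hydroxysteroid dehydrogenase that inactivates progesterone, varied little among tumours, at 4.79 to 6.11 in the tumours and -2.95, -3.01, -2.07 and -2.61 in the livers (log2 difference 8.18, adjusted p = 6.65e-06). Cpe, carboxypeptidase E of prohormone processing, rose by 7.65 (adjusted p = 1.61e-06), with 3.83 and 4.18 in the tumours of mouse 4 and 5.81 or more in the others. Gldn, gliomedin of the nerve sheath, rose by 9.01 (adjusted p = 2.16e-05; 1 of 4 WT arrays above background). All 12 of the largest rises also passed with slide as a random block, 11 of them were also higher than in KO livers, and tumour 5 lay above every WT liver in all 12. The exception against KO livers was Sult2a2, a sulfotransferase of steroids and bile acids: it was at least 90.5-fold higher than in WT livers (adjusted p = 1.18e-05) but differed by -6.08 from KO livers (adjusted p = 0.000105).

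**Figure D1:**
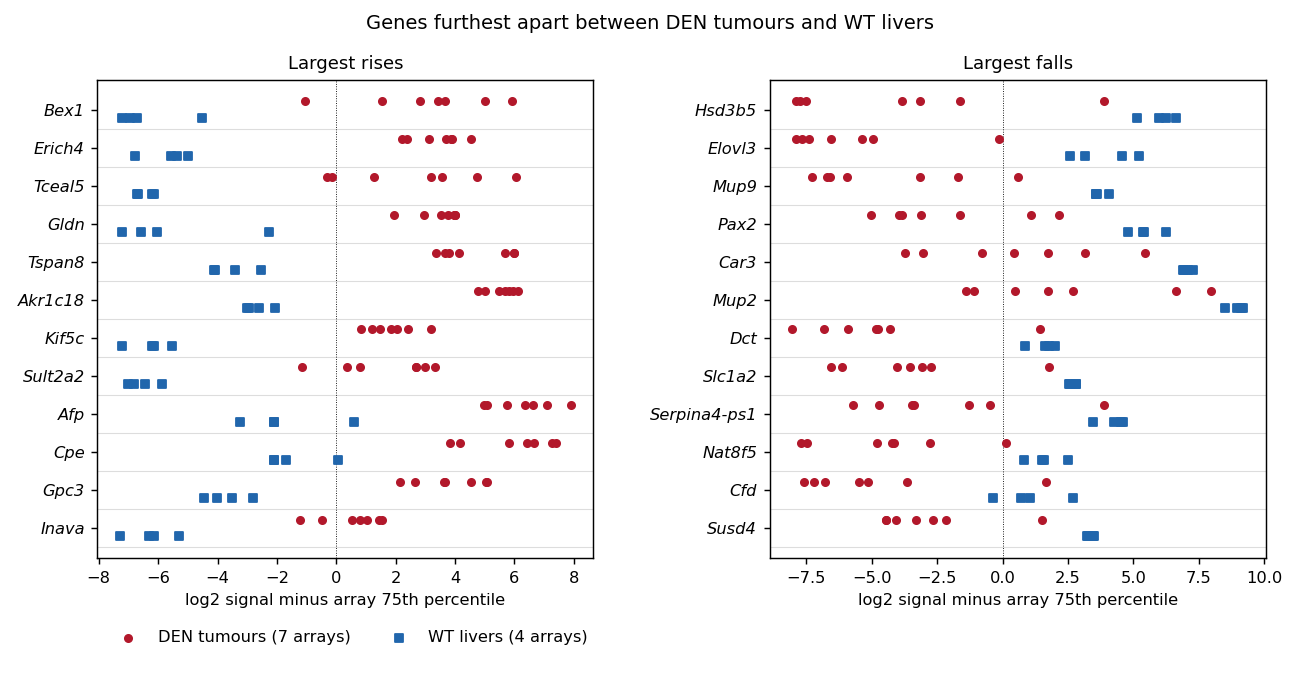
Levels (log2 signal minus the array's 75th percentile, horizontal axis) of the 12 genes with the largest rises (left) and the 12 with the largest falls (right), 1 point per array, DEN tumours as circles above WT livers as squares. Both sets were picked among genes whose mice did not overlap between the groups. In the right panel 1 tumour, tumour 5, is the highest of the 7 for all 12 genes.

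Fetal and oncofetal genes rose as a group. In bulk tissue, as here and throughout, more cells of a type and more RNA per cell cannot be told apart. Of 18 tested members of the oncofetal list, 10 were higher and 0 lower, against 10.6% and 10.9% of all genes tested, with a median change of 1.46 against 0.04 over all genes. Afp, the fetal counterpart of albumin, was at 6.63, 4.97, 5.76, 6.36, 5.07, 7.10 and 7.90 in DEN tumours 1 to 7 and at -2.10, -2.09, 0.61 and -3.24 in the WT livers (log2 difference 7.82 ± 0.69, adjusted p = 1.61e-06). Every tumour was above every liver. Gpc3, a cell surface proteoglycan of fetal liver and hepatocellular carcinoma, was at 2.13 to 5.08 in tumours and -4.01, -2.80, -3.53 and -4.44 in livers (log2 difference 7.45, adjusted p = 5.16e-07). Ly6d, a small surface protein anchored in the membrane, rose by 6.80 (adjusted p = 5.09e-07) and Golm1, a Golgi membrane protein used as a serum marker of liver cancer in humans, by 4.71 (adjusted p = 5.5e-07). These 4 also passed with the slide block. Tff3, a secreted trefoil peptide, rose by 6.51 (adjusted p = 0.0014). The imprinted noncoding RNA H19 was uneven among tumours, at 6.97, 2.82, -1.39, 5.40, 2.07, 4.74 and 1.96 in tumours 1 to 7 against -4.46, -4.05, -2.74 and -3.40 in the livers (log2 difference 6.76, adjusted p = 0.00204, slide block adjusted p = 0.0986). Its second probe gave 0.05, so this rise rests on 1 probe. Igf2, the imprinted growth factor gene beside H19, did not pass (-7.06 to -4.27 in tumours, -4.87 to -3.26 in livers, adjusted p = 0.386).

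Ligands of the Egf receptor and the feedback genes of ERK rose, while the receptor fell. In the list of Egfr and Ras pathway components 5 of 26 members were higher and 1 was lower. Btc (betacellulin) was at -2.75 to 0.23 in tumours and -4.38, -4.10, -4.87 and -4.74 in livers (log2 difference 3.46, adjusted p = 3.19e-05). Hbegf was at -1.85 to -0.45 in tumours and -3.70, -3.57, -3.77 and -3.65 in livers (log2 difference 2.63, adjusted p = 4.41e-06). Neither overlapped between the groups, and both passed with the slide block (adjusted p = 0.0482 and 0.00488). The ligands Areg (2.76, adjusted p = 0.00892, 1 of 4 WT arrays above background) and Tgfa (1.20, adjusted p = 0.00204) rose as well, as did the receptor Met (1.98, adjusted p = 0.000394). The receptor Egfr was at 3.09, 4.16, 3.98, 3.78, 3.95, 3.79 and 3.94 in tumours 1 to 7, against 5.40, 5.31, 5.44 and 4.72 in the WT livers. All tumours were lower (log2 difference -1.42 ± 0.28, adjusted p = 0.00182), and its other probes gave -1.56 and -1.41. Against KO livers, however, Egfr was higher in the tumours (log2 difference 1.72, adjusted p = 0.000311).

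Of 19 genes induced by ERK, 12 were higher and 0 lower, with a median change of 1.49. Ier3, an immediate early gene, was at -0.34, 2.86, -1.41, -0.91, 0.80, -1.16 and 2.86 in tumours 1 to 7 and -4.33, -3.93, -4.33 and -3.49 in the WT livers (log2 difference 4.41, adjusted p = 0.0002). The highest tumours were 2 and 7. Spry1 and Spred1, inhibitors of the Ras to ERK route, rose by 2.13 and 1.95 (adjusted p = 7.68e-06 and 1.85e-05) and also passed with the slide block; the other probes of Spred1 gave -0.25 to 1.51. The phosphatases Dusp4 (3.02, adjusted p = 0.000292) and Dusp6 (1.49, adjusted p = 0.00074), which switch off MAP kinases, and the transcription factor Egr1 (3.36, adjusted p = 0.000716) rose too. Dusp5 was above background in all 7 tumours and in none of the WT livers, at least 2.03-fold higher (adjusted p = 0.000509), though the lowest tumour overlapped the livers' signals. The mean difference of the list from the WT mean was 1.12 to 1.93 in the 7 tumours, the lowest being tumour 1, and -0.15 to 0.08 in the 4 livers. With the slide block 3 of the 19 were higher. Against KO livers 9 of the 19 were higher and 0 lower, and Dusp6 did not pass (0.31, adjusted p = 0.363).

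Some targets of p53 were higher in the tumours, and the part of p53 in this was not tested. Of 24 tested targets 7 were higher (29.2%) and 2 lower (8.33%), against 10.6% and 10.9% of all genes tested. With the slide block 4 were higher and 0 lower. Against KO livers 8 of the 24 were higher and 5 lower, where 23.3% of all genes were higher and 15.6% lower. Btg2, an antiproliferative gene, was at 2.27 to 4.21 in tumours and -1.26, -0.66, -0.77 and -0.32 in livers (log2 difference 3.84, adjusted p = 1.99e-05). Phlda3, a repressor of Akt, rose by 3.11 (adjusted p = 8.4e-05) and Tnfrsf10b, a death receptor, by 2.99 (adjusted p = 1.35e-05). Both were higher in all 7 tumours than in any liver. Cdkn1a, the p53-induced inhibitor of the cell cycle, was at 0.80, 0.30, -0.31, -1.73, -0.93, -2.30 and -0.50 in tumours 1 to 7 and -5.32, -4.50, -4.92 and -4.54 in the livers (log2 difference 4.43, adjusted p = 2.81e-06; 2 of 4 WT arrays above background). Its other probes gave smaller changes, 0.15 to 0.96. On the probe used, Cdkn1a averaged -1.62 in KO tumours and -5.62 in KO livers. Mdm2, the ubiquitin ligase that p53 induces against itself, did not pass (0.34, adjusted p = 0.321), and Trp53 was higher by 0.92 (adjusted p = 0.0356). Sesn1 (-0.999, adjusted p = 0.00313) and Ddb2 (-0.82, adjusted p = 0.0315), of the stress and repair arms of the pathway, fell.

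Proliferation genes were higher in some tumours, and the livers differed among themselves. Mki67, the marker of cycling cells, was at -1.505, -0.38, -1.82, 0.36, -0.29, 0.08 and 0.47 in tumours 1 to 7 and -3.04, -2.52, -2.12 and 0.51 in the WT livers, and did not pass (log2 difference 1.11, adjusted p = 0.186). WT liver 4 reached the level of the highest tumours. Of 21 mitotic genes 4 were higher and 1 was lower. Without tumour 5, where 11.3% of all genes were higher and 11.3% lower, 7 of the 21 were higher. The mean difference of the mitosis list was 0.23 to 2.06 in the tumours, and -0.57 to 1.19 in the livers, where WT liver 4 stood apart. Against KO livers 16 of the 21 were higher. Aurka, the mitotic kinase, was led by tumour 3 at 5.71, with the other tumours at -1.49 to 1.54 (log2 difference 3.24, adjusted p = 0.0292). Tpx2, which activates Aurka on the spindle, was lower by the probe used (-1.57, adjusted p = 0.0299) while its other probe gave 1.74, so its direction is not settled here. In DNA replication 3 of 19 members were higher (Mcm2 1.58, Ccne1 1.35, Mcm6 1.14; adjusted p = 0.000812, 0.0134 and 0.0242) and 2 were lower. Mgmt, which removes alkyl groups from guanine in DNA, was at 0.01 to 2.43 in tumours and 2.25 to 2.68 in livers (log2 difference -1.31, adjusted p = 0.01). Its difference was -0.40 with the tumours of the first scan day (adjusted p = 0.482) and -1.86 with those of the second (adjusted p = 0.00113), and it did not pass with the slide block (adjusted p = 0.393). Of 18 repair genes 2 fell, Mgmt and the scaffold protein Xrcc1 (-0.75, adjusted p = 0.00328), while the DNA ligase Lig1 rose (0.70, adjusted p = 0.0422).

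Antioxidant and stress genes rose in part. Of 26 targets of NRF2, the transcription factor of the antioxidant response, 8 were higher and 1 was lower. Cbr3, a carbonyl reductase, was at 2.45 to 7.40 in tumours and -0.88, -0.78, -0.97 and -0.72 in livers (log2 difference 5.89, adjusted p = 3.61e-06). G6pdx, the first enzyme of the pentose phosphate route, rose by 2.61 (adjusted p = 1.43e-05), and both passed with the slide block. Slc7a11, the cystine importer, was at -1.33, -0.53, 1.05, -6.16, -4.92, -0.72 and 2.597 in tumours 1 to 7 and was not above background in any WT liver, at least 16.3-fold higher (adjusted p = 0.000674). Both tumours of mouse 4 had the lowest levels. Nqo1, the quinone reductase often used to read NRF2 activity, rose by 2.75 (adjusted p = 0.00468) and was lowest in the same mouse (0.26 and 0.03, against 1.97 to 3.38 in the other 5 tumours). Me1, malic enzyme, which also serves fat synthesis, fell by 2.22 (adjusted p = 0.000352). Of 15 ER stress genes 4 were higher (6 without tumour 5) and 0 lower, among them Atf3 (3.18, adjusted p = 0.000125) and Ddit3 (1.52, adjusted p = 0.00139), stress-induced transcription factors. In the acute phase list 3 of 21 were higher and 1 was lower (3 lower without tumour 5). Lcn2, an iron-scavenging acute phase protein, was at 7.09, 6.43, 6.47, 4.40, 4.89, 6.35 and 6.72 in tumours 1 to 7 against -0.80, -0.80, 0.43 and -0.12 in livers (log2 difference 6.55, adjusted p = 1.91e-07). Apcs (serum amyloid P) rose by 2.76 (adjusted p = 5.85e-05).

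Interferon-induced genes were raised evenly over the tumours. Of 28 members 17 were higher and 1 was lower, and the mean difference of the list from the WT mean was 0.99 to 1.51 in the tumours and -0.48 to 0.26 in the livers. Oas1a, which makes the 2-5A messenger in response to double-stranded RNA, was at 3.28 to 4.92 in tumours and 0.26, 1.10, 0.40 and 0.83 in livers (log2 difference 3.19 ± 0.30, adjusted p = 2.48e-06). Ifi44 (2.93, adjusted p = 3.11e-05) and Usp18, which removes the ubiquitin-like Isg15 from proteins (2.03, adjusted p = 0.00019), rose as well. All 3 passed with the slide block, as 5 of the 28 did. Isg15 was at 3.18 to 4.41 in tumours and 1.60, 2.38, 2.05 and 2.10 in livers (log2 difference 1.69, adjusted p = 0.000209), and Ifit1, a sensor of foreign RNA caps, at -1.17 to 0.14 in tumours and -3.31, -2.30, -2.14 and -2.04 in livers (log2 difference 1.80, adjusted p = 0.00116). Both were higher in every tumour than in any liver. Xaf1 rose by the probe used (1.62, adjusted p = 0.000204), while its other probe gave -3.87. Gbp6, a guanylate-binding protein, was lower (-1.34, adjusted p = 0.0375), while its other probe gave 0.03. Against KO livers 16 were higher and 2 lower. MHC class II genes, which interferon gamma induces in antigen-presenting cells, did not pass in either direction (0 of 7 by limma). At an unadjusted p under 0.05, 2 of the 7 were higher, against 7942 of all 23555 genes in either direction. Their mean difference was 0.11 to 1.35 in tumours and -0.69 to 1.18 in WT livers, where WT liver 4 was highest. Against KO livers, at -0.69 to -0.36, 6 of the 7 were higher.

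The promoters of interferon-induced genes are known for the interferon-stimulated response element, which the factor complex ISGF3 binds. Its letters were searched as GAAANNGAAA on both strands of RefSeq promoters (GRCm38.p6; 250 bases before to 50 after a start site), which held an entry for 22 of the 28 genes. The motif was found in 7 of 14 of the genes that were higher and in 5 of 8 of the others, against 3.44% of all 32851 promoters in the table. The last 120 bases before the start site are printed for Oas1a, Isg15 and Ifit1, 3 of the 7 higher genes that hold the motif. The motif is in capitals, with overlapping matches joined.
Oas1a (chr5:120907526-120907645, minus strand): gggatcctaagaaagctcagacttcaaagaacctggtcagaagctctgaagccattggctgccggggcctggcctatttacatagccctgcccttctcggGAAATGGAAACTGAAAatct
Isg15 (chr4:156200819-156200938, minus strand): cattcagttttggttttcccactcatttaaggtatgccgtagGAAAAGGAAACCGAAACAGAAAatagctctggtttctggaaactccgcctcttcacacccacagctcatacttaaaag
Ifit1 (chr19:34640769-34640888, plus strand): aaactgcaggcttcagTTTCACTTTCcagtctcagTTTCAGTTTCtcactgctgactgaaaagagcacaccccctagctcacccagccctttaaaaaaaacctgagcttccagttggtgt
The stretches hold 2, 3 and 2 matches in that order. In Oas1a and Isg15 the matches overlap as repeats, and in Ifit1 they lie apart. The motif was also present in a promoter of 5 of the 8 other members, so these letters do not set apart the genes that rose.

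**Figure D2:**
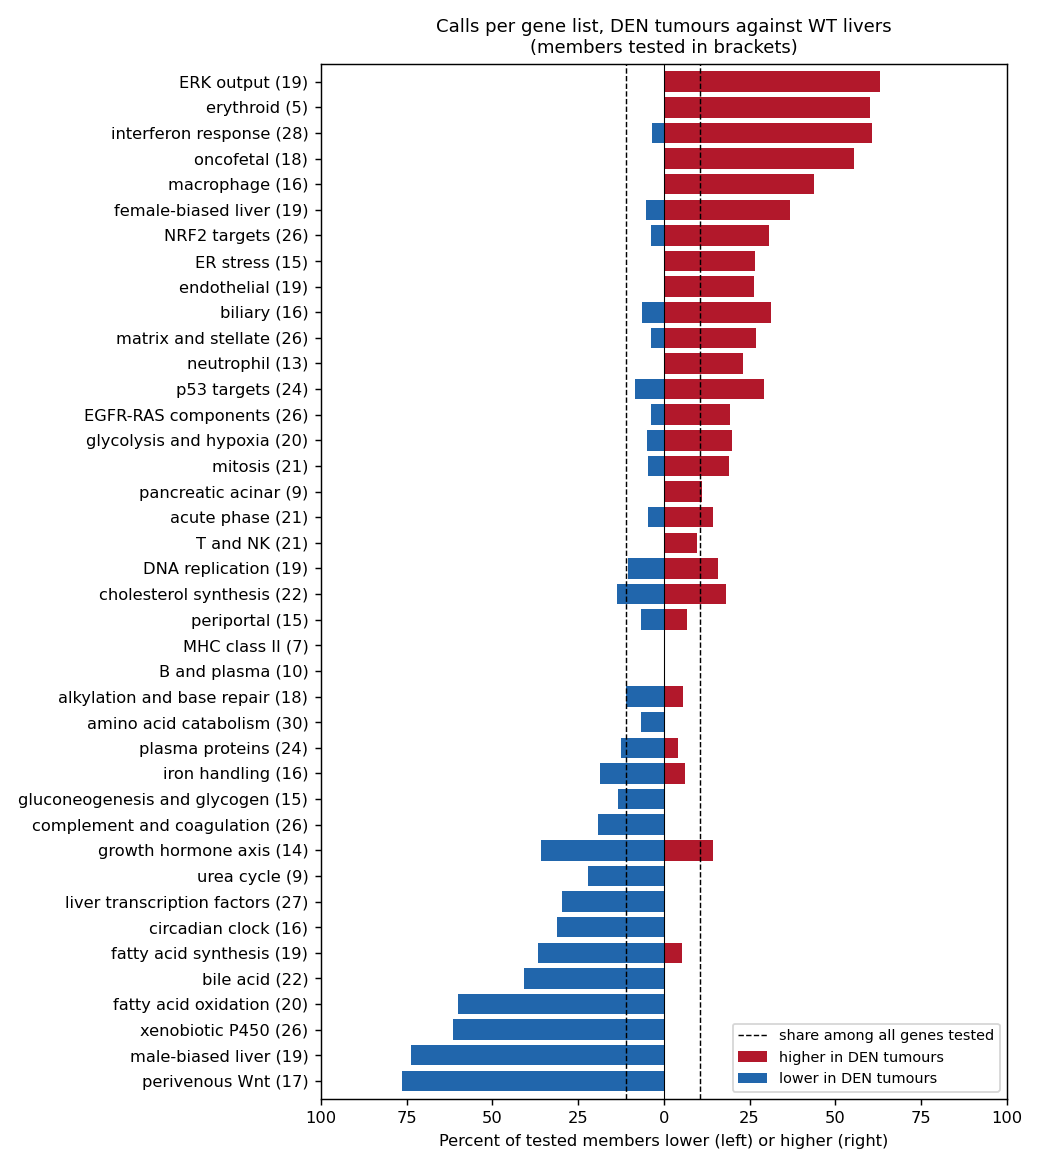
Percent of the tested members of each list that were lower (left of 0) or higher (right of 0) in DEN tumours than in WT livers, with the number tested in brackets and dashed lines at the shares among all genes tested, 10.9% lower and 10.6% higher. ERK output (12 of 19 higher) and interferon response (17 of 28 higher) lie near the top, and perivenous Wnt (13 of 17 lower) at the bottom.

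Large falls were found in genes of the perivenous zone. Of 17 perivenous genes kept on by Wnt signals 13 were lower and 0 higher, with a median change of -3.28. Glul, glutamine synthetase, which only hepatocytes next to the central vein make, was at 0.36, -1.06, -1.72, 0.64, 4.53, 0.91 and 0.43 in DEN tumours 1 to 7 and at 4.53, 4.42, 4.22 and 4.78 in the WT livers. Tumour 5 lay within the range of the livers and the other 6 far below it. The log2 difference was -4.32 ± 0.58 (adjusted p = 7.99e-05), and -4.71 without tumour 5 (adjusted p = 8.01e-07). Slc1a2, the glutamate importer of the same cells, was at -3.54, -6.15, -6.54, -4.04, 1.77, -3.08 and -2.73 in the tumours and 2.80, 2.56, 2.59 and 2.80 in the livers (log2 difference -6.74, adjusted p = 4.73e-05; 5 of 7 tumour arrays above background). Its probe lies at chr2:102617752-102617811 (mm9). Cyp2e1, which activates DEN, was at 3.71, 2.49, -0.05, 5.22, 8.14, 5.18 and 3.79 in tumours 1 to 7 and 8.78, 8.54, 8.61 and 8.66 in livers (log2 difference -5.19 ± 0.91, adjusted p = 0.000732). Tumour 5 was again nearest to liver and tumour 3 lowest.

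Direct Wnt targets fell with these zonal enzymes. Axin2, a feedback inhibitor of the Wnt pathway, was at -5.48 to -3.78 in tumours and -2.05, -1.84, -2.97 and -2.23 in livers (log2 difference -2.48, adjusted p = 0.000381; 5 of 7 tumour arrays above background). Lgr5, a receptor that amplifies Wnt signals, fell by 3.28 (adjusted p = 0.0195), Sp5, a Wnt-induced transcription factor, by 5.21 (adjusted p = 0.000185; 4 of 7 tumour arrays above background), and Tbx3, a T-box factor, by 4.50 (adjusted p = 0.0032). Rgn (regucalcin) fell by 5.199 (adjusted p = 0.000823). Oat, ornithine aminotransferase, was at -0.04, 5.52, -1.39, 0.19, 4.34, 1.19 and 0.94 in tumours 1 to 7, against 5.74, 5.37, 5.55 and 5.61 in the livers (log2 difference -4.09, adjusted p = 0.00601). Tumour 2 lay within the range of the livers and tumour 5 was the next highest. The mean difference of the list was -4.61 to -2.18 in 6 tumours, -0.66 in tumour 5 and -0.07 to 0.12 in the livers. Tumour 5 was the highest of the 7 for 12 of the 17 genes. Without it 14 of the 17 were lower. Against KO livers 14 were lower too. With the tumours of the first scan day alone, where 6.38% of all genes were higher and 7.68% lower, 11 of the 17 were lower; with those of the second day (14.9% higher and 11.9% lower) it was 13. With slide as a random block 0 of the 17 passed (limma), and the adjusted p of Glul was 0.106. At an unadjusted p under 0.05 in that fit 10 of the 17 were lower, against 3483 of all 23555 genes in either direction. Of 15 periportal genes 1 was higher and 1 lower, with a median change of -0.60. Their mean difference was -1.60 to -0.26 in tumours and -0.36 to 0.40 in WT livers, and 6 of the 7 tumours lay below every liver. The adhesion protein Cdh1 rose (2.24, adjusted p = 0.000445) and Igf1 fell (-2.26, adjusted p = 0.00207).

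**Figure D3:**
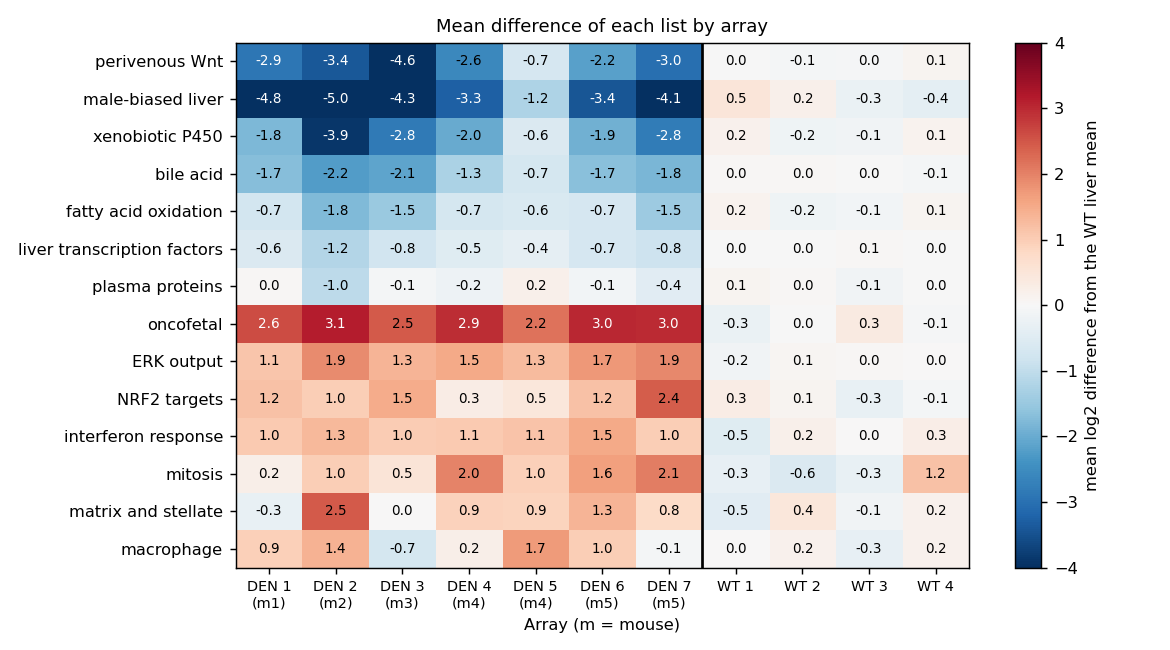
Mean difference of a list's tested members from the WT liver mean (log2, colour and printed value) for 14 lists (rows) in the 7 DEN tumours and the 4 WT livers (columns, with the mouse of each tumour). Tumour 5 is the nearest to the livers in the perivenous, male-biased, P450 and bile acid rows, and is close to the other tumours in the ERK and interferon rows.

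Drug-metabolising P450 enzymes fell: 16 of 26 were lower and 0 higher, with a median change of -2.25. Cyp2c54, an epoxygenase of the Cyp2c family, was at 1.01, -0.42, -2.46, 0.79, 6.08, 2.18 and 1.56 in DEN tumours 1 to 7 and 6.63, 6.40, 6.56 and 6.80 in the WT livers (log2 difference -5.91, adjusted p = 0.000109). Only tumour 5 came close to the livers. Cyp2c50 (-5.63, adjusted p = 4.65e-05), Cyp2c37 (-5.15, adjusted p = 2.23e-05), Cyp1a2, which oxidises caffeine (-4.13, adjusted p = 0.00137), and Cyp4a14, a fatty acid hydroxylase (-5.57, adjusted p = 0.00201), fell with it. Probes of the closely related Cyp2c genes may share signal. None of the 26 passed with the slide block (limma; 14 were lower at an unadjusted p under 0.05), where the adjusted p of Cyp2c37 was 0.068.

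Bile acid genes followed the same way, with 9 of 22 lower and 0 higher. Cyp7a1, the rate-limiting enzyme of bile acid synthesis, was at -6.53, -6.22, -6.49, -3.14, 1.71, -1.52 and -2.78 in tumours 1 to 7 and 0.91, 2.04, 2.40 and 2.24 in livers (log2 difference -6.32, adjusted p = 0.000457; 4 of 7 tumour arrays above background). Tumour 5 lay within the range of the livers and tumours 1, 2 and 3 were lowest. Cyp8b1, which sets the share of cholic acid, fell by 6.33 (adjusted p = 1.64e-05; 4 of 7 tumour arrays above background), Cyp27a1, of the alternative route, by 3.18 (adjusted p = 0.000156), the uptake transporter Slco1b2 by 4.89 (adjusted p = 0.000638) and Nr1h4, the bile acid receptor FXR, by 1.98 (adjusted p = 0.00476). With the slide block 0 of the 22 passed (limma; 9 were lower at an unadjusted p under 0.05), and the adjusted p was 0.201 for Cyp7a1 and 0.0524 for Cyp8b1.

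Of 20 genes of fatty acid oxidation 12 were lower and 0 higher, with a median change of -1.14. Acaa1b, a peroxisomal thiolase, was at 3.24, 2.34, 2.38, 4.95, 5.45, 3.61 and 2.77 in tumours 1 to 7 and 7.07, 6.57, 6.19 and 6.83 in livers (log2 difference -3.39 ± 0.49, adjusted p = 0.000141, slide block adjusted p = 0.0829). All tumours were below all livers. The thioesterase Acot1 (-3.54, adjusted p = 0.000623) and the mitochondrial importer Cpt2 (-1.62, adjusted p = 0.00162) fell. With the slide block 1 of the 20 was lower. In fatty acid synthesis 7 of 19 were lower, among them Fasn (-1.65, adjusted p = 0.000953) and Acacb (-2.10, adjusted p = 0.000117), and 1 was higher; with the slide block 0 were lower (limma; 6 at an unadjusted p under 0.05). The higher one was Scd2, a desaturase that adult liver uses little, at 3.16 to 5.30 in tumours and -0.83, -0.05, 1.09 and -0.35 in livers (log2 difference 4.25, adjusted p = 1.93e-05). Cholesterol synthesis was split, with 4 of 22 higher and 3 lower, all by 1.12 or less in size; Srebf2, the regulator of the pathway, was among the higher (adjusted p = 0.00632).

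In glycolysis and the hypoxia response 4 of 20 were higher and 1 was lower. Pfkp, the phosphofructokinase of platelets, was at -1.78, 1.91, -0.83, -3.51, -2.07, -2.56 and 0.72 in tumours 1 to 7 and -3.78, -3.21, -3.81 and -2.42 in livers (log2 difference 2.42, adjusted p = 0.0121). Tumours 2 and 7 were highest, and tumours 4 and 6 lay within the range of the livers. Pkm, the pyruvate kinase of tissues other than liver (1.48, adjusted p = 0.0329), and the transporters Slc2a1 for glucose (1.36, adjusted p = 0.00696) and Slc16a3 for lactate (1.38, adjusted p = 0.0324) rose; without tumour 5 Pkm and Slc16a3 did not pass (adjusted p = 0.0759 and 0.069), which left 2 of the 20 higher. Pklr, the pyruvate kinase of liver, fell by 1.23 (adjusted p = 0.0263). Pdk1, which restrains pyruvate dehydrogenase and is induced by hypoxia, fell to -0.57 to 0.53 in tumours, against 1.53, 1.75, 1.63 and 1.46 in livers (log2 difference -1.83, adjusted p = 0.000196, slide block adjusted p = 0.0124). In the urea cycle 2 of 9 were lower: the mitochondrial carrier Slc25a13 (-2.40, adjusted p = 7.9e-06, also with the slide block) and the mitochondrial carbonic anhydrase Car5a (-3.03, adjusted p = 0.00247). Of 30 genes of amino acid catabolism 2 were lower and 0 higher (Hpd -2.18 and Ahcy -1.55, adjusted p = 0.00477 and 0.00711). Their median change was -0.78, and their mean difference was -1.58 to -0.19 in tumours and -0.18 to 0.21 in livers. The list of gluconeogenesis and glycogen also holds the glycolytic enzyme Pklr. Of its 15 genes 2 were lower, Pklr and Foxo1 (-0.56, adjusted p = 0.0414). The median change of the list was -0.70, and its mean difference was -1.08 to -0.42 in tumours and -0.14 to 0.14 in livers. For both lists every tumour lay below every liver, while few single genes passed.

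Of 24 plasma proteins 1 was higher (4.17%) and 3 were lower (12.5%), against 10.6% and 10.9% of all genes tested. Apoa4, an apolipoprotein of intestine and liver, was at 6.15, 4.29, 5.78, 5.17, 4.53, 6.60 and 2.36 in tumours 1 to 7 and 1.15, 0.39, 1.25 and 1.10 in livers (log2 difference 4.13, adjusted p = 0.000196), and Apoa5, which lowers plasma triglycerides, moved the other way (-2.25, adjusted p = 0.0214). In complement and coagulation 5 of 26 were lower (19.2%) and 0 higher: the lectin Mbl1 (-2.0, adjusted p = 0.00147) and C6, C8a, C8b and C9 of the terminal complex that lyses membranes (-3.02, -2.31, -2.73 and -2.63; adjusted p = 0.00385, 0.0494, 0.0105 and 0.0345). Of these, C6 was higher in the tumours than in KO livers (2.09, adjusted p = 0.02). The differences of C8a, C8b and C9 from KO livers did not pass (1.09, 0.07 and -0.62, adjusted p = 0.293, 0.945 and 0.58). C6 and C8b are also members of the male-biased list below. In iron handling 3 of 16 were lower and 1 was higher. Hamp, hepcidin, the liver hormone that blocks iron export, was at -1.29, 1.48, -1.70, 1.65, 5.36, 3.20 and 1.64 in tumours 1 to 7 and 6.46, 6.77, 6.58 and 6.30 in livers (log2 difference -5.64 ± 0.93, adjusted p = 0.000444). All tumours were lower, tumour 5 least. Tfrc, the transferrin receptor that imports iron, rose by 2.38 (adjusted p = 0.00128) and Aco1, the iron-sensing aconitase, fell by 1.21 (adjusted p = 0.000888).

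Transcription factors of the hepatocyte fell in part. Of 27, 8 were lower and 0 higher, and with the slide block 1 was lower. Cebpa, which drives hepatocyte maturity, was at 1.54 to 2.96 in tumours and 4.12, 3.89, 4.26 and 3.99 in livers (log2 difference -1.78, adjusted p = 0.000882). Zbtb20, known as a repressor of Afp in mouse liver, was at 0.73 to 1.79 in tumours and 2.599, 2.87, 2.98 and 2.86 in livers (log2 difference -1.76, adjusted p = 4.15e-05, slide block adjusted p = 0.0258). Neither overlapped between the groups. Nr1i3, the xenobiotic receptor CAR, fell by 1.80 (adjusted p = 0.0218). Of 16 clock genes 5 were lower and 0 higher, with Tef (-2.23, adjusted p = 0.0127) and Nr1d1 (-2.05, adjusted p = 0.00524), both factors with strong daily rhythms, among them. The sources used here do not give the hour of collection, and its part was not tested.

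Most male-biased liver genes fell: of 19 tested 14 were lower and 0 higher than in WT livers, with a median change of -3.02. Hsd3b5, a male-specific steroid reductase and the largest fall of all, was at -7.90, -7.50, -7.73, -1.61, 3.88, -3.17 and -3.85 in DEN tumours 1 to 7 and 6.64, 6.26, 5.97 and 5.13 in the WT livers. Tumour 5 came nearest to the livers, and 3 tumours were near the bottom of the scale (4 of 7 tumour arrays above background). The log2 difference was -11.10 ± 1.36 (adjusted p = 3.25e-05, slide block adjusted p = 0.065), and the probe lies at chr3:98422576-98422635 (mm9). Elovl3, a fatty acid elongase (-10.19, adjusted p = 1.15e-05, slide block adjusted p = 0.0267; 3 of 7 tumour arrays above background), Susd4, a complement regulator (-6.55, adjusted p = 8.79e-06, slide block adjusted p = 0.041), Slco1a1, an organic anion transporter (-6.38, adjusted p = 1.39e-05; 6 of 7 tumour arrays above background), and Cyp4a12a, which hydroxylates arachidonic acid (-5.22, adjusted p = 0.0029), fell with it. With the slide block 2 of the 19 were lower, Elovl3 and Susd4. Of the major urinary proteins, Mup2 was at -1.10, -1.41, 0.49, 6.61, 7.96, 2.69 and 1.72 in tumours 1 to 7 and 9.20, 9.12, 8.49 and 8.97 in livers (log2 difference -7.45, adjusted p = 0.00163). Both tumours of mouse 4 kept high levels. Related Mup genes may share signal between probes.

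Female-biased genes rose in part, with 7 of 19 higher and 1 lower (1 higher with the slide block). Sult2a1 was at -3.43 to 1.60 in tumours and -7.19, -4.56, -6.87 and -5.35 in WT livers (log2 difference 5.58, adjusted p = 0.000397; 1 of 4 WT arrays above background). Cyp17a1, of steroid synthesis (2.39, adjusted p = 0.000807), and Sult1e1, the oestrogen sulfotransferase (5.63, adjusted p = 0.00175; 1 of 4 WT arrays above background), rose too, Sult1e1 most in tumour 2 at 5.78. The second set of livers gave another picture. Against KO livers 4 of the 19 male-biased genes were higher and 5 lower, and 14 of the 19 female-biased genes were lower and 0 higher. For Hsd3b5 the difference from KO livers was 0.78 (adjusted p = 0.675), for Slco1a1 2.57 (adjusted p = 0.0101) and for Sult2a1 -8.12 (adjusted p = 1.11e-05). The mean difference of the male-biased list from the WT mean was -4.98 to -1.22 in the tumours and -4.04 to -3.26 in KO livers, and for the female-biased list it was 0.84 to 2.31 in the tumours and 4.79 to 5.29 in KO livers. The Y-linked genes Ddx3y, Eif2s3y and Uty, and Xist, differed neither from WT nor from KO livers past the threshold (limma adjusted p of 0.747 or more and 0.51 or more). Ddx3y was at 0.26 to 1.19 in DEN tumours, 0.53 to 0.81 in WT livers and 0.44 to 0.85 in KO livers.

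**Figure D4:**
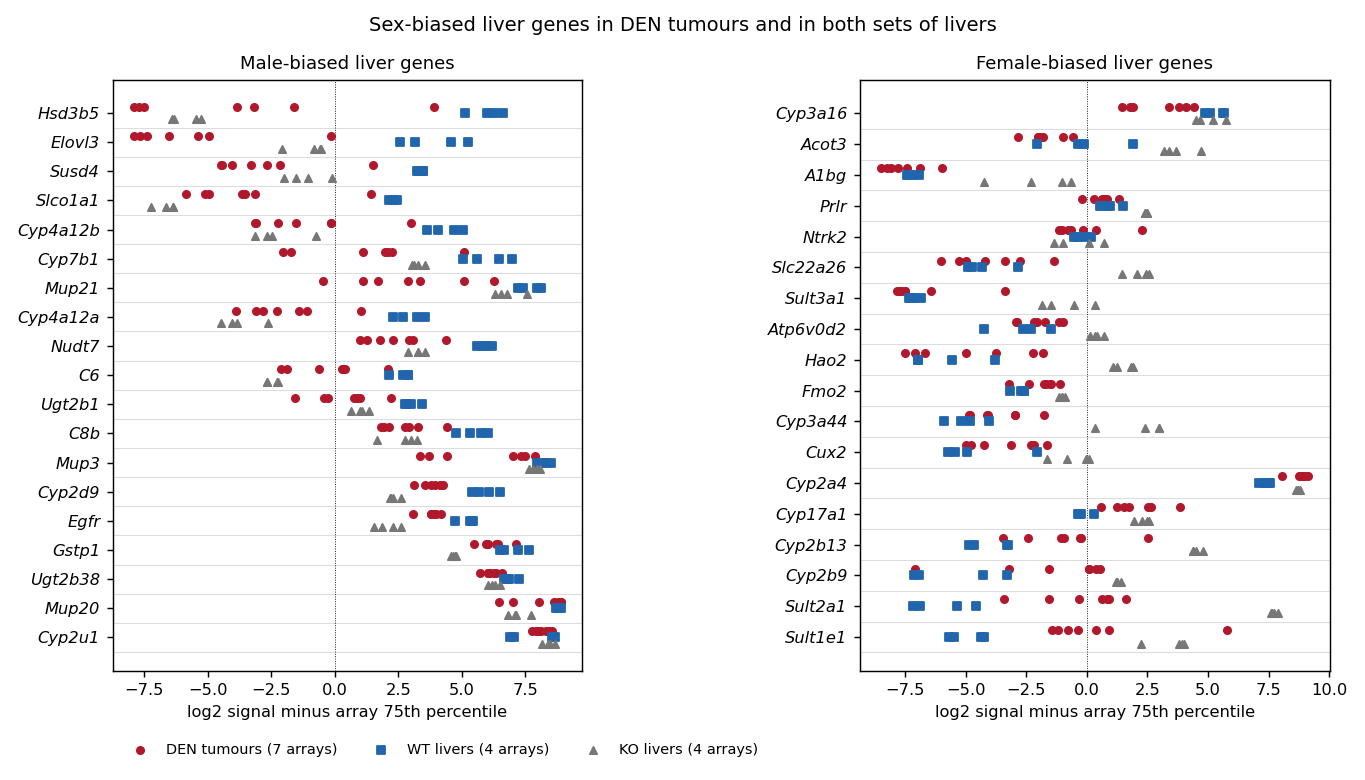
Levels (log2 signal minus the array's 75th percentile) of the 19 male-biased (left) and 18 of the 19 female-biased (right) liver genes tested, 1 point per array, DEN tumours as circles, WT livers as squares and KO livers as triangles, from top to bottom within a gene. WT livers are high for male-biased genes such as Hsd3b5, where DEN tumours and KO livers are both low, and for female-biased genes such as Sult2a1 the tumours lie between WT and KO livers.

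Genes of the growth hormone axis changed in both directions (2 of 14 higher, 5 lower; 1 and 1 with the slide block). Igfbp1, a binding protein for insulin-like growth factors that insulin represses, was at 8.85, 8.45, 8.64, 8.07, 7.99, 8.09 and 9.17 in tumours 1 to 7 and 1.47, 3.06, 1.85 and 2.47 in livers. The tumours were alike and far above the livers (log2 difference 6.31 ± 0.68, adjusted p = 9.62e-06, slide block adjusted p = 0.00251), while the difference from KO livers did not pass (1.65, adjusted p = 0.063). Ghr, the growth hormone receptor, fell by 2.46 (adjusted p = 0.00197), Igf1 by 2.26 (adjusted p = 0.00207; its other probes gave -2.39 to -0.02), Igfals, which stabilises Igf1 in plasma, by 2.85 (adjusted p = 0.00148) and Bcl6, a repressor of female-biased genes in male liver, by 2.80 (adjusted p = 0.000347). Cish, a feedback inhibitor downstream of the receptor, rose by 1.87 (adjusted p = 0.0103).

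The 12 largest falls were picked among genes that passed, whose mice did not overlap and which were above background in all 4 WT livers. Among them were genes on none of these lists. Car3, carbonic anhydrase of muscle, fat and liver, was at -3.04, -3.73, -0.79, 3.14, 5.43, 1.75 and 0.44 in tumours 1 to 7 and 7.10, 6.92, 6.94 and 7.28 in livers (log2 difference -7.50, adjusted p = 0.00225). Both tumours of mouse 4 were the nearest to the livers. Dct, an enzyme of melanin synthesis (-6.96, adjusted p = 0.000111), Nat8f5, an acetyltransferase relative (-6.63, adjusted p = 0.000128), and Cfd, complement factor D of fat tissue (-6.60, adjusted p = 0.00733), were each above background in 4 or 5 of the 7 tumours. Pax2, a developmental transcription factor, fell by 8.10 on the probe used (adjusted p = 4.98e-05), whereas its other probes gave 0.09 to 0.83. Of the 12 largest falls 2 passed with the slide block (Elovl3 and Susd4) and 9 were also lower than in KO livers. Tumour 5 was the highest tumour for all 12, and within or above the range of the livers for 3.

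Markers of other cells rose in some tumours. Of 16 biliary markers 5 were higher and 1 was lower. Prom1, of progenitor and duct cells, was at 2.49 to 4.53 in tumours and -2.29, -1.56, -2.21 and -2.91 in livers (log2 difference 5.84, adjusted p = 2.63e-07), and Krt23, a keratin, rose by 3.89 (adjusted p = 0.000444). Spp1 (2.41, adjusted p = 0.00297) and Sox9 (2.20, adjusted p = 0.000545) rose too, but the defining duct markers Krt19 (0.48, adjusted p = 0.81) and Epcam (0.34, adjusted p = 0.81) did not pass. Cldn7 rose by 1 probe (2.01, adjusted p = 0.0447), led by tumour 1, and its other probe gave -3.79. Without tumour 5 it did not pass (adjusted p = 0.0629). Cftr, the chloride channel of ducts, fell by 2.38 (adjusted p = 0.00565), but was above background on 2 of 7 tumour and 3 of 4 WT arrays.

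Matrix and stellate genes were high in tumour 2 above all. Of 26 members 7 were higher and 1 was lower (1 higher with the slide block), and the mean difference from the WT mean was 2.47 in tumour 2, against -0.29 to 1.35 in the other tumours and -0.46 to 0.44 in the livers. Col4a1 and Col4a2, the basement membrane collagens, rose by 2.41 and 2.07 (adjusted p = 0.000836 and 0.00429), Timp1, an inhibitor of matrix proteases, by 2.94 (adjusted p = 0.00225) and Acta2, of contractile cells, by 1.91 (adjusted p = 0.0198). Among endothelial markers 5 of 19 were higher and 0 lower, with changes from -1.31 to 2.48. The largest was that of Cd34 (2.48, adjusted p = 0.000438), which liver sinusoids lack and capillaries carry. Its other probe gave 0.98. Without tumour 5, 4 of the 19 were higher, and with the slide block 0 passed (limma). With the tumours of the first scan day alone, where 6.38% of all genes were higher, 1 of the 19 was higher. Among macrophage markers 7 of 16 were higher and 0 lower, and the changes of the 16 ran from -2.39 to 4.26. The higher ones included Gpnmb (4.26, adjusted p = 0.00106, 1 of 4 WT arrays above background), Ccr2 (1.996, adjusted p = 0.000147, 2 of 4) and Cd68 (1.39, adjusted p = 0.0085). The mean difference ran from -0.70 in tumour 3 to 1.70 in tumour 5. Without tumour 5, where 11.3% of all genes were higher, 6 of the 16 were higher. With the slide block 0 of the 16 passed (limma). At an unadjusted p under 0.05 in that fit 4 were higher, against 3483 of all 23555 genes in either direction. Neutrophil markers were higher for 3 of 13 (S100a8 2.61, adjusted p = 0.0123), T and NK cell markers for 2 of 21, and B cell markers for 0 of 10 (limma). For T and NK cells 1 WT liver reached 1.14, above the highest tumour at 1.06. Red cell genes, which mark blood in the tissue, were among the higher. Hbb-b2, a beta globin, was at 3.38 to 6.02 in tumours and 2.22, 0.85, 1.85 and 2.19 in livers (log2 difference 3.102, adjusted p = 0.0082). Of 5 erythroid markers 3 were higher than in WT livers and 1 was higher than in KO livers, where Hbb-b2 did not pass (0.40, adjusted p = 0.704). The lowest change among the 5 was -1.58. Without tumour 5, where 11.3% of all genes were higher and 11.3% lower, 3 were higher and 1 lower. With the slide block 0 of the 5 passed (limma). The mean difference of these markers was 0.32 to 3.16 in tumours and -0.71 to 0.42 in WT livers. The part of blood in the rises of leukocyte markers was not tested. Of 9 acinar markers of the pancreas 1, the elastase Cela1 (4.90, adjusted p = 0.000303), was higher.

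Tumours differed strongly in some genes. The 10 genes with the largest SD over the 7 tumours were taken as a description, with no test. Wnt10a, a Wnt ligand, was at -5.33, 4.54, -4.78, -4.65, -4.19, -4.48 and 6.17 in tumours 1 to 7 and -7.23, -7.00, -5.61 and -3.80 in the livers. Tumours 2 and 7 stood far above the rest. The same pair was highest for 7 of the 10 genes, Baalc, Mmd2, Pcdh20 and Pthlh included. Of the 10, 8 did not pass the test against WT livers. Pthlh, parathyroid hormone-related peptide, was at 4.52 and 1.92 in this pair and at -6.01 to -3.42 in the others. These tumours came from different mice and lay on different slides. Tumour 6, which shared its mouse with tumour 7, was low for Wnt10a (-4.48) and Pthlh (-3.84). Cyp2b10, the P450 induced through CAR, was at 4.10, -6.42, 4.23, 2.24, 1.10, 4.18 and 4.08 in tumours 1 to 7 and -1.45, -2.51, -0.38 and 0.93 in livers, so that tumour 2 lay below and the other 6 above the livers. Reg3b, a secreted lectin, was above background in tumour 2 alone (2.12, against -8.36 to -7.60 in the others). Mup19 was lowest in tumours 1 and 2 (-0.13 and 0.32) and highest in tumour 5 (9.18, against 9.12 to 9.52 in the livers).

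**Figure D5:**
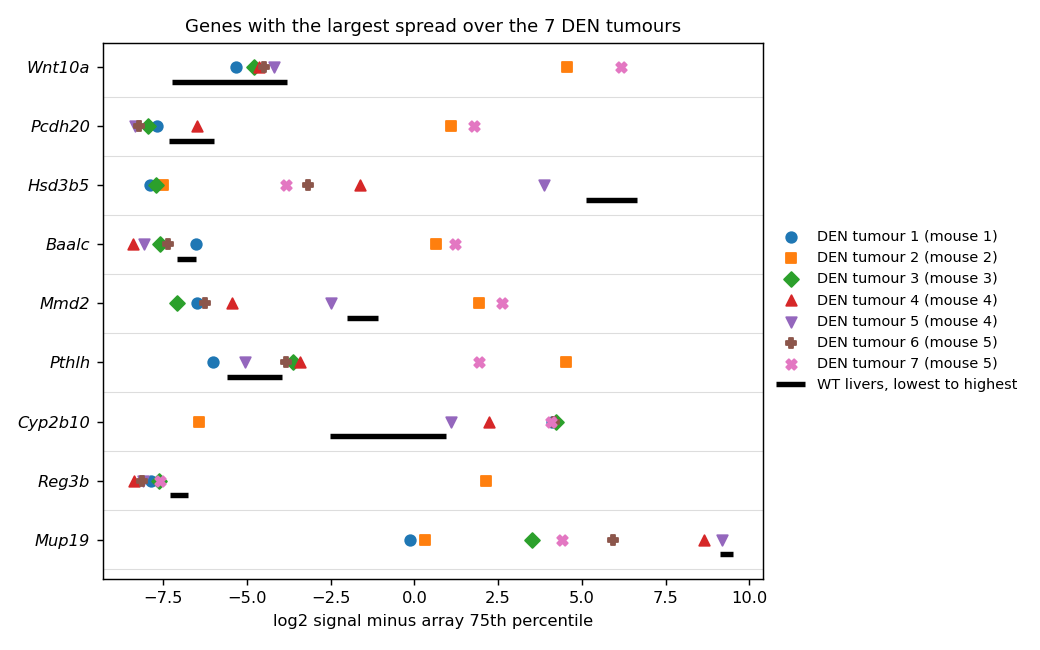
Levels (log2 signal minus the array's 75th percentile) of 9 of the 10 genes with the largest SD over the 7 DEN tumours, 1 marker per tumour with its mouse, above a bar from the lowest to the highest WT liver. Tumours 2 and 7, from different mice, stand apart at the high end for Wnt10a, Pcdh20, Baalc, Mmd2 and Pthlh.

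For 16 genes the test was the DEN effect (DEN tumours minus WT livers) minus the KO effect (KO tumours minus KO livers). Of all genes, 18.2% were higher and 12.7% lower in this test. The difference passed for Afp (5.66 ± 0.98 SE, adjusted p = 0.000659), Gpc3 (5.52, adjusted p = 0.000263) and Alb (2.68, adjusted p = 0.0045), all higher in the DEN effect. Afp averaged 6.11 ± 0.97 in DEN tumours (SD, n = 5 mice), -1.71 ± 1.63 in WT livers (n = 4), 0.29 ± 1.14 in KO tumours (n = 5) and -1.87 ± 0.32 in KO livers (n = 4). It passed in the other direction for Epcam (-6.09, adjusted p = 0.00087), Mki67 (-3.62, adjusted p = 0.00359), Spp1 (-3.49, adjusted p = 0.00216), Sox9 (-2.48, adjusted p = 0.00257) and Egfr (-1.34, adjusted p = 0.0186). A passed difference can come from either model. Alb (-0.26), Epcam (0.34) and Mki67 did not pass between DEN tumours and WT livers. In KO tumours Alb averaged 7.02 and Epcam 2.06, against 9.96 and -4.37 in KO livers. Egfr averaged 3.79 in DEN tumours, 5.22 in WT livers, 1.99 in KO tumours and 2.08 in KO livers. For Glul (-1.36, adjusted p = 0.218), Cyp2e1 (-1.18, adjusted p = 0.505), H19 (0.39, adjusted p = 0.898) and Cdkn1a (0.43, adjusted p = 0.603) the difference between the effects did not pass, which does not show that they were alike.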

How the data were processed

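Total RNA was read on 1-colour Agilent arrays, 21 samples in the series. The deposited processed signal is an intensity per spot, background-subtracted and detrended on each array by Agilent Feature Extraction 10.7.3.1, per the file headers. The deposited flags for spots above background, and the raw mean and background intensities, come from the same files. The deposited value table holds log2 values that track the log2 processed signals, and it served as an alternative. How it was scaled is not stated in the sources used here.

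Here, log2 processed signals minus each array's 75th percentile over the 39429 non-control probes were used. Spots marked as outliers were left out (969 missing values over all arrays). A probe was kept (30435 of 39429) if it was well above background on at least 4 arrays, and the probe with the highest mean level stood for a gene, which left 23555 genes. Gene names came from RefSeq accessions for most probes (26761 by the file's own accession, 102 by another accession, 3746 by symbol, 623 by synonym), and 8197 kept the file's name.

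Tumours of 1 mouse were averaged. A limma 3.58.1 fit on 18 mice in 4 groups, with empirical Bayes and Benjamini-Hochberg adjustment over all genes, gave the contrasts, and values in KO tumours and KO livers enter the estimate of spread. The test was tried on simulated data. A gene is named if it is among the 12 highest or lowest changes, among the 3 risen or fallen members of a list with the smallest adjusted p, among 16 genes always named, or among the 10 with the largest SD over tumours. Further genes were chosen after their values were seen (Areg, Tgfa, Egr1, Dusp4, Dusp5, Dusp6, Phlda3, Tff3, Cyp4a12a, Sult1e1, Cyp1a2, Cyp4a14, Slc7a11, Nqo1, Slco1b2, Rgn, Tbx3, Axin2, Lgr5, Oat, Ifit1, Isg15, Xaf1, Cldn7, Acta2, C9, Cpt2, Nr1i3, Pkm and C8a), and Y-linked genes served as a check. Some genes that these rules chose are not reported here, though counts include them. The comparison and the 41 lists (766 of 772 members on the array) were chosen with earlier results of these data known. The labels do not say how the animals were housed or sampled together, so p-values measure the spread between these mice. Precision is limited by the number of arrays. Alternatives were other scalings and background correction, other probe filters, other sample sets, blocks for slide and mouse, each scan day alone, the mean over probes and each mouse left out. Leaving out tumour 5 was added after seeing the data.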

Additional observations from a re-analysis of the deposited data

Results flagged for a closer look

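Single mice stood apart from the rest of their group in 26 cases among the named genes (Dixon's test on the mean level per mouse, at the 95% critical values for 4 or 5 mice), and chance alone marks about 1 in 20 groups. There were 196 named genes, and the cases come from both the DEN tumours and the WT livers, so many of them can be chance. Mice 4 and 5 of the DEN group are means of 2 tumours. Tumour mouse 2 was high for Sult1e1 (5.78), Spp1 (5.01), Reg3b (2.12) and Pdk1 (0.53), and low for Cyp2b10 (-6.42). Mouse 1 was high for Trib3 (6.38), an inhibitor of Akt signalling induced by ER stress, for Cldn7 (3.18) and for S100a8 (1.54), and low for Egfr (3.09). Mouse 3 was high for Aurka (5.71) and Met (2.21). Mouse 4 was low for Lcn2 (4.64), Cpe (4.01) and Sox9 (-0.49). Mouse 5 was high for Ifi44 (1.22) and low for Igf1 (1.78).

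Among the WT livers, mouse 4 was high for Mcm6 (1.77), Cish (1.51), Ly6d (1.27) and Aurka (-1.40), and low for Cyp27a1 (2.35). WT liver 4 also had the highest mean differences of the lists for mitosis (1.19), T and NK cells (1.14) and B and plasma cells (1.86). WT mouse 1 was high for Mup9 (4.06) and low for Egr1 (-1.98). WT mouse 2 was high for Acacb (5.31), and WT mouse 3 for Tgfa (-3.17) and Cxcr2 (-5.12).

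The effect of DEN tumours minus WT livers differed from that of KO tumours minus KO livers by a test of the difference (limma, adjusted over all genes) for 8 of the 16 genes. The differences were 5.66 for Afp, 5.52 for Gpc3, 2.68 for Alb, -1.34 for Egfr, -2.48 for Sox9, -3.49 for Spp1, -3.62 for Mki67 and -6.09 for Epcam.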

How the results depend on the processing

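Of 182 named genes that passed, 126 kept their call and direction under every alternative but the slide block, and 44 kept it with slide as a random block, where 297 genes were higher and 125 lower over all genes. With the DEN tumours of the first scan day alone 1502 genes were higher. Leaving out 1 mouse or tumour 5 gave 1775 to 2664 higher and 1837 to 2668 lower genes. Under the other alternatives both counts stayed within 1.5 times of 2489 and 2577. Taking the mean over the probes of a gene turned 3 named genes: Cldn7 (-0.89), Tpx2 (0.082) and Xaf1 (-1.13), whose probes disagreed. No paired analysis was possible because no label ties a tumour to a liver, and replicate numbers only name the samples. The 4 WT livers share 1 slide and scan day that hold no tumour, so the counts with the slide block rest on the spread between the other slides. The number of arrays limits precision, and genes below background in WT livers have only a bound. Compression of bright signals was not tested.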

Other observations

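The 2 tumours of 1 mouse correlated at 0.956 (mouse 4) and 0.960 (mouse 5), within the 0.945 to 0.962 of tumours of different mice on different slides. Of 23100 genes with a value on all arrays, 6545 were at least 2-fold apart between the tumours of mouse 4 and 6384 between those of mouse 5. The difference of the slide 1 tumour minus the slide 2 tumour correlated between these mice at 0.317 over genes, which are not independent replicates. Of the genes that were 2-fold apart in both mice, 2624 differed the same way by slide and 676 the opposite way. The first principal component of the 11 arrays held 40.8% and the second 18.2% of the variance, and on the second the tumours of slide 1 lay at 63.4 to 95.1 and those of slide 2 at -56.9 to -30.2. The WT livers, which share a slide, also split on it, with livers 1 and 2 at 8.70 and 17.5 and livers 3 and 4 at -50.1 and -43.0.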
